A study of Mus musculus with 13 samples.

Results

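The Ms4a genes code for a family of small membrane proteins that lie side by side on mouse chromosome 19. The symbols of 10 of them, Ms4a1, Ms4a2, Ms4a4a, Ms4a4b, Ms4a4c, Ms4a6b, Ms4a6c, Ms4a6d, Ms4a7 and Ms4a8a, were looked up among the 32285 genes of the single-cell count tables, which list 19 Ms4a genes in all. The 10 were picked with their counts by cell type and tissue already known, so their levels by class carry no test, and the calls between tissues printed further on are a description read beside the share of all genes called. The data go partly against the name of a leukocyte family, because Ms4a8a was highest in epithelial cells.

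Ms4a proteins cross the cell membrane several times, and many of them sit beside a signaling receptor and change how strongly it signals. Ms4a1 is CD20 of B cells, the target of the antibody rituximab, and Ms4a2 is the beta chain of the high-affinity IgE receptor of mast cells and basophils. Ms4a4b is known from T cells, where it has been linked to the costimulatory receptor GITR, and Ms4a4a, the Ms4a6 genes and Ms4a7 are known mainly from monocytes and macrophages. In the colon, leukocytes of all these kinds lie under and within the epithelium, and monocytes that enter the tissue from blood mature there into macrophages.

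The data were 13 single-cell RNA libraries (3′ gene expression, 10x Genomics), 10 from colon tumors and 3 from adjacent mucosa, of 3 C57BL/6J mice. All libraries shared the genotype ApcMin/+; p16cis/cis, an Apc mutation that starts intestinal tumors together with an engineered silencing of p16, and all mice ate the NIH-31 diet supplemented with choline, betaine, folic acid and vitamin B12. Mouse A (24 weeks) gave mucosa 2 and tumors 5 to 8, mouse B (23 weeks) mucosa 3 and tumors 9 and 10, and mouse C (20 weeks) mucosa 1 and tumors 1 to 4. No library of mice on the control diet was analysed here, so nothing below compares diets. Mucosa was dissociated with EDTA and TrypLE and tumors with a tumor dissociation kit, so the tissue and its dissociation cannot be told apart. The tumors of 1 mouse are not independent animals, and p-values over libraries measure the spread between libraries of 3 mice.

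Each library held 57221300 to 93157039 UMIs, the counted molecules, in tumors and 84883382 to 116133079 in mucosa. Of 137591 barcodes, 109910 were retained as cells, 86687 from tumors and 23223 from mucosa, and any 2 libraries shared 14 to 61 barcodes. The labels call 7 libraries female, but in all 13 libraries Xist had at most 8 UMIs while Y-linked genes had 6185 to 11110. Libraries of mouse A carried both sexes as labels, as did those of mouse C, so the labels of sex and of animal conflict there. The labelled sex was therefore not used. Cells were clustered with no Ms4a gene among the genes used, and clusters were named from fixed marker lists as 12 leukocyte classes, written here with the ending -like, and epithelial cells. For 11 of the 12 classes the summed level of the marker list was highest in the class of that name. The exception was the conventional dendritic cell-like class, at 917 against 999 CPM (counts per 1000000 UMIs of a class) in migratory dendritic cell-like cells. The same lists had named the clusters, so this comparison is no independent check of the names. Mucosa held few myeloid cells, with 53 Ly6c+ monocyte-like, 71 C1q+ macrophage-like and 1 Spp1+ macrophage-like cell, against 9277, 8260 and 4161 in the tumors.

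On GRCm38 the members lie within 556 kb of chromosome 19, from base 11067471 to base 11623719, in the order Ms4a8a, Ms4a1, Ms4a7, Ms4a4a, Ms4a4c, Ms4a4b, Ms4a6c, Ms4a6b, Ms4a6d and Ms4a2, with 5 other Ms4a genes among them. Ms4a4b, which was highest in lymphoid cells, starts 16.3 kb after the end of the myeloid Ms4a4c and ends 2.31 kb before the myeloid Ms4a6c. RefSeq promoter windows of GRCm38.p6, from 250 bases before to 50 bases after a start site, were found for 8 members. The neighbors Ms4a4c and Ms4a4b are printed because their start regions are alike while their levels differ between cell classes, and Ms4a2 because nearly all of its counts fell in 2 classes. Capitals mark GAGGAA, the core of the site of the myeloid and B cell factor PU.1, in the first pair, and AGATAA or its reverse complement TTATCT, a site of the GATA factors that act in mast cells, in Ms4a2.
Ms4a4c, chr19:11407411-11407710, plus strand: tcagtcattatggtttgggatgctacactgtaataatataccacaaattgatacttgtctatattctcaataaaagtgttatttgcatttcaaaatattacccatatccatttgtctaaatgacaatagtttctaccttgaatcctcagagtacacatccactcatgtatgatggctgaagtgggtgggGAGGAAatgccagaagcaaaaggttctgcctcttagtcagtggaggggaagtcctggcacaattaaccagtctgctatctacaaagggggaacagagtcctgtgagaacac
Ms4a4b, chr19:11443308-11443607, plus strand: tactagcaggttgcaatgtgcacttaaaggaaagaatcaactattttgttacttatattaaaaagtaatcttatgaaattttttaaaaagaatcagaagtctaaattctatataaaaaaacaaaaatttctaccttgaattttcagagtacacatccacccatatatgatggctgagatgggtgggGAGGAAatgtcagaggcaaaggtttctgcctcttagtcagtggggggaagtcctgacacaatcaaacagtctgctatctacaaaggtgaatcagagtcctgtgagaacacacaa
Ms4a2, chr19:11623670-11623969, minus strand: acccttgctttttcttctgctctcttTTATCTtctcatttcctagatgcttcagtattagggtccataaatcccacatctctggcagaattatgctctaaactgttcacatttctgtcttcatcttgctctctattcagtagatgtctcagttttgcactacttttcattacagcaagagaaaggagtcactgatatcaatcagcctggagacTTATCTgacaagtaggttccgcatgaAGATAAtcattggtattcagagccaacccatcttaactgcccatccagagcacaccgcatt

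The GAGGAA match lay 61 bases before the start site of Ms4a4c and 64 bases before that of Ms4a4b, and another lay 43 bases after the start site in 1 of the 2 windows of Ms4a7. Both strands were searched, and 28.3% of 32851 mouse promoter windows hold GAGGAA. The Ms4a2 window holds 3 AGATAA matches, 224, 37 and 11 bases before the start site. At least 1 such match is in 11.2% of all windows and 3 or more are in 0.107%. TGTGGT, a RUNX motif found in 16.8% of windows, had 1 match among the member windows, in Ms4a4c, while TTGCNNAA (C/EBP, 10.8%) and an interferon response element (3.44%) had none. These matches describe letters in the windows and do not show binding.

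Because family members are alike in sequence, reads of one may be counted for another or for neither, which was not tested. Of 45 pairs of members, 4 shared any stretch of 50 bases between their annotated transcripts, and 2 pairs did so within the last 500 bases, where this 3′ method reads. Ms4a4b and Ms4a4c shared 135 stretches, 7.73% of those of Ms4a4c and 10.5% of those in its last 500 bases. Ms4a6b and Ms4a6c shared 117, 5.85% of those of Ms4a6c. Ms4a6b and Ms4a6d shared 40, 2.31% of those of Ms4a6d and 2.43% of those in the last 500 bases of Ms4a6b. Ms4a2 and Ms4a4b shared 63, with 0 in the last 500 bases. A low level of either gene of a pair is therefore uncertain where the other is high, as for Ms4a4b in monocyte-like cells, Ms4a4c in T cell-like and NK or innate lymphoid-like cells and Ms4a6c and Ms4a6d in T cell-like cells, and so are their calls between tissues in those classes.

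Levels were computed as CPM in each library and class and are given for tumors as the mean ± SD of the 3 mice, each mouse being the mean of its tumors. The map of levels by class shows that the members fell to different classes, with a B cell gene, a mast cell gene, a lymphoid gene, a group of myeloid genes and an epithelial gene.

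**Figure D1:**
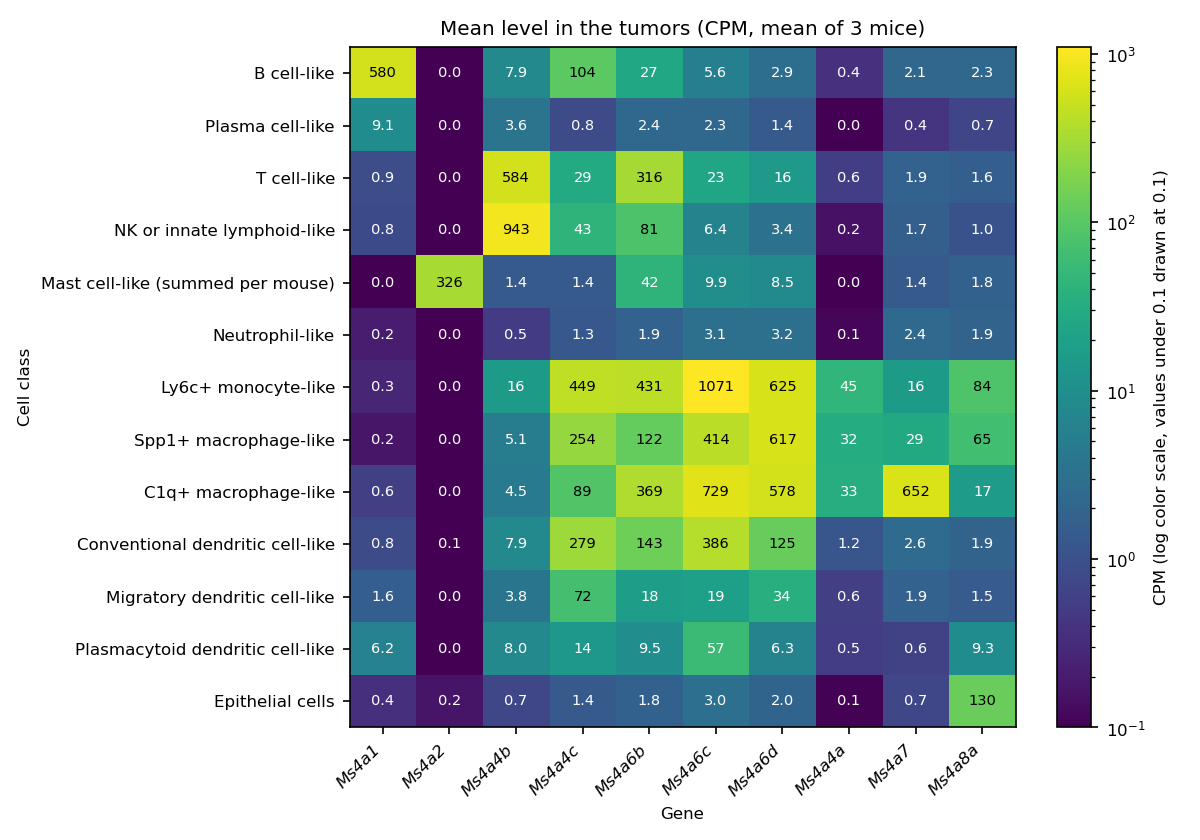
Mean level of each member in the tumors by cell class, in CPM as the mean of 3 mice, on a log color scale with values under 0.1 drawn at 0.1. Ms4a1 reaches 580 CPM in B cell-like cells, Ms4a2 326 in mast cell-like cells, Ms4a4b 943 in NK or innate lymphoid-like cells, Ms4a6c 1071 in Ly6c+ monocyte-like cells and Ms4a7 652 in C1q+ macrophage-like cells, while neutrophil-like cells stay at 3.16 or below for every member.

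Ms4a1 was highest in B cell-like cells at 580 ± 28.3 CPM. The 10 tumors ran from 497 to 718 CPM with a median of 591, and B cell-like cells held 91% of its tumor UMIs. The next class, plasma cell-like cells, stood at 9.14 ± 5.37 CPM, and these did not differ beyond their combined SD from plasmacytoid dendritic cell-like cells, which came next. At least 1 Ms4a1 UMI was found in 69.7% of tumor B cell-like cells (median depth 2239 UMIs), against 0.0468% of neutrophil-like cells (median depth 2674), which should lack it. With each cell thinned to 1000 UMIs the shares were 43.9% and 0.0148%.

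Ms4a2 was high in mast cell-like cells alone. Mast cell-like cells were rare, 121 in the tumors at 8 to 16 per tumor and 2 in mucosa, so they were summed per mouse. The sums gave 328, 299 and 352 CPM for mice A, B and C, or 326 ± 26.2 CPM from 163 UMIs. The cluster was led by the mast cell proteases Mcpt1 and Mcpt2 but also by Mcpt8, a basophil gene, so it was not separated from basophils. Single tumors ran from 240 to 455 CPM, and in every other class with enough cells the mean was 0.169 CPM or lower. A UMI was seen in 58.7% of tumor mast cell-like cells (median depth 2663), and in 29.9% of them after thinning, against 0.0039% of neutrophil-like cells. Its receptor partner Fcer1a, the chain that binds IgE, stood at 1043 CPM in the same cells, with 852 to 1380 CPM over the mice.

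Of the 218 Ms4a2 UMIs in tumors, 163 lay in mast cell-like cells and 50 (22.9%) in epithelial cells. Within the epithelium, 41 of the 50 fell in the 3599 tumor cells of 1 cluster led by Mt4, Spock2 and Mt3, with 1 to 10 UMIs in 9 tumors and none in tumor 10. The level there was 0.589 CPM over the pooled cluster, far below that of mast cell-like cells, and mucosa epithelium had 1 UMI in all.

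Ms4a4b was the lymphoid member. Its mean was highest for NK or innate lymphoid-like cells, at 943 ± 184 CPM, with tumors from 559 to 1222 CPM and a median of 986, while T cell-like cells averaged 584 ± 64.6 CPM, from 360 to 816. The tumors of both classes overlapped, although the class means differed by more than their combined SD. The next class, Ly6c+ monocyte-like cells, held 15.8 ± 3.17 CPM. A UMI of Ms4a4b was present in 84.1% of tumor NK or innate lymphoid-like cells (median depth 3187) and 58.9% of T cell-like cells, and in 0.113% of neutrophil-like cells.

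Ms4a6b was shared between myeloid and T cells. It reached 431 ± 61.3 CPM in Ly6c+ monocyte-like, 369 ± 45.7 in C1q+ macrophage-like and 316 ± 11.7 in T cell-like cells. The first 2 did not differ beyond their spread, while T cell-like and C1q+ macrophage-like cells did. T cell-like cells held 13.9% of its tumor UMIs and 81.6% of its mucosa UMIs. Of the myeloid members it was the one that T cell-like cells held at over 30 CPM, since Ms4a4c, Ms4a6c and Ms4a6d stood at 29.3, 23.4 and 15.5 CPM there.

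The Ms4a6 and Ms4a4 genes of myeloid cells were highest in Ly6c+ monocyte-like cells, whose genes are those of blood monocytes. Ms4a6c averaged 1071 ± 89.1 CPM there, with tumors from 740 to 1248, followed by C1q+ macrophage-like cells at 729 ± 74.3, Spp1+ macrophage-like cells at 414 ± 14.2 and conventional dendritic cell-like cells at 386 ± 53.3. Each step in that order exceeded the combined SD except the last. Ms4a6c had a UMI in 95.4% of tumor Ly6c+ monocyte-like cells (median depth 6029) and 60.7% after thinning, against 0.904% and 0.344% in neutrophil-like cells.

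Ms4a6d was nearly level across the 3 monocyte and macrophage classes. It averaged 624.8 ± 30.4 CPM in Ly6c+ monocyte-like, 617 ± 54 in Spp1+ macrophage-like and 578 ± 62 in C1q+ macrophage-like cells, and these did not differ beyond their spread. Its level was lower by more than the spread in conventional dendritic cell-like cells, at 125 ± 10.6 CPM, and in migratory dendritic cell-like cells, at 33.7 ± 3.17 CPM. Which of the Ly6c+ and Spp1+ classes ranked first changed when tumors were averaged without regard to mouse or when doublets were kept.

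Ms4a4c had a broader order that took in dendritic and B cells. It averaged 449 ± 40.4 CPM in Ly6c+ monocyte-like cells, where tumors ran from 298 to 538. Conventional dendritic cell-like cells (279 ± 50.4) and Spp1+ macrophage-like cells (254 ± 27.3) did not differ beyond their spread, nor did B cell-like cells (104 ± 14.1) and C1q+ macrophage-like cells (89.3 ± 18.7). In B cell-like cells the 10 tumors ran from 64.2 to 192 CPM.

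Ms4a4a, a macrophage protein that has been linked to the fungal receptor dectin-1, was found in the same 3 classes. It stood at 45.1 ± 6.74 CPM in Ly6c+ monocyte-like, 33.1 ± 3.15 in C1q+ macrophage-like and 31.9 ± 2.15 in Spp1+ macrophage-like cells, and at 1.22 CPM or lower in every other class with enough cells. The last 2 of the 3 did not differ beyond their spread.

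Ms4a7 was highest in C1q+ macrophage-like cells, which are defined by their complement genes. It averaged 652 ± 67.7 CPM there, with tumors from 529 to 819, against 28.8 ± 7.09 CPM in Spp1+ macrophage-like and 15.8 ± 4.75 in Ly6c+ monocyte-like cells. The lowest C1q+ value exceeded the highest value of either other class, 54.6 CPM. C1q+ macrophage-like cells held 95.5% of its tumor UMIs, and 59.7% of them had at least 1 (median depth 7616), or 34.3% after thinning, against 0.76% and 0.263% of neutrophil-like cells.

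The macrophage clusters within these classes showed orders that ran in opposite directions. The C1q+ class was made of 3 clusters, led by C1qb, Tgfbi and Aif1, by Clec4a3 and Pf4, and by C1qa, C1qc and Apoe. Spp1 was among the 10 leading genes of the Apoe-led cluster and not of the Spp1+ class, which was named from the whole marker list and led by Ccl24, Inhba and Il1a. The Pf4-led cluster was shallow, with a median of 1083 UMIs per cell against 6394 and 11260 in the other C1q+ clusters, and had the heat shock gene Hspa1a among its leading genes. Ms4a7 was higher at each step of the order Ly6c+, Spp1+, then these 3, at 15.8, 28.8, 97.8, 234 and 865 CPM. Tumor 2 did not rise at the first step, at 26.1 and 26.0 CPM. Ms4a8a was lower at each step of the same order, at 83.6, 65.5, 49.4, 25.4 and 5.23 CPM, although its first step lay within the spread between mice and tumor 4 ran the other way there.

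Ms4a4c was also lowest in the Apoe-led cluster, at 449, 254, 264, 141 and 31 CPM in that order. Its highest tumor value in the Apoe-led cluster, 44.5 CPM, lay below the lowest in each of the other 4 clusters, of which the lowest was 111 CPM. Ms4a4a, at 27.2 to 45.1 CPM over the 5 clusters, and Ms4a6d, at 304 to 624.8 CPM, had no such order. The clusters were formed from the same cells and were ordered after their values were seen, so the orders are descriptions, and those of Ms4a7 and Ms4a8a are the same without the Pf4-led cluster.

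**Figure D2:**
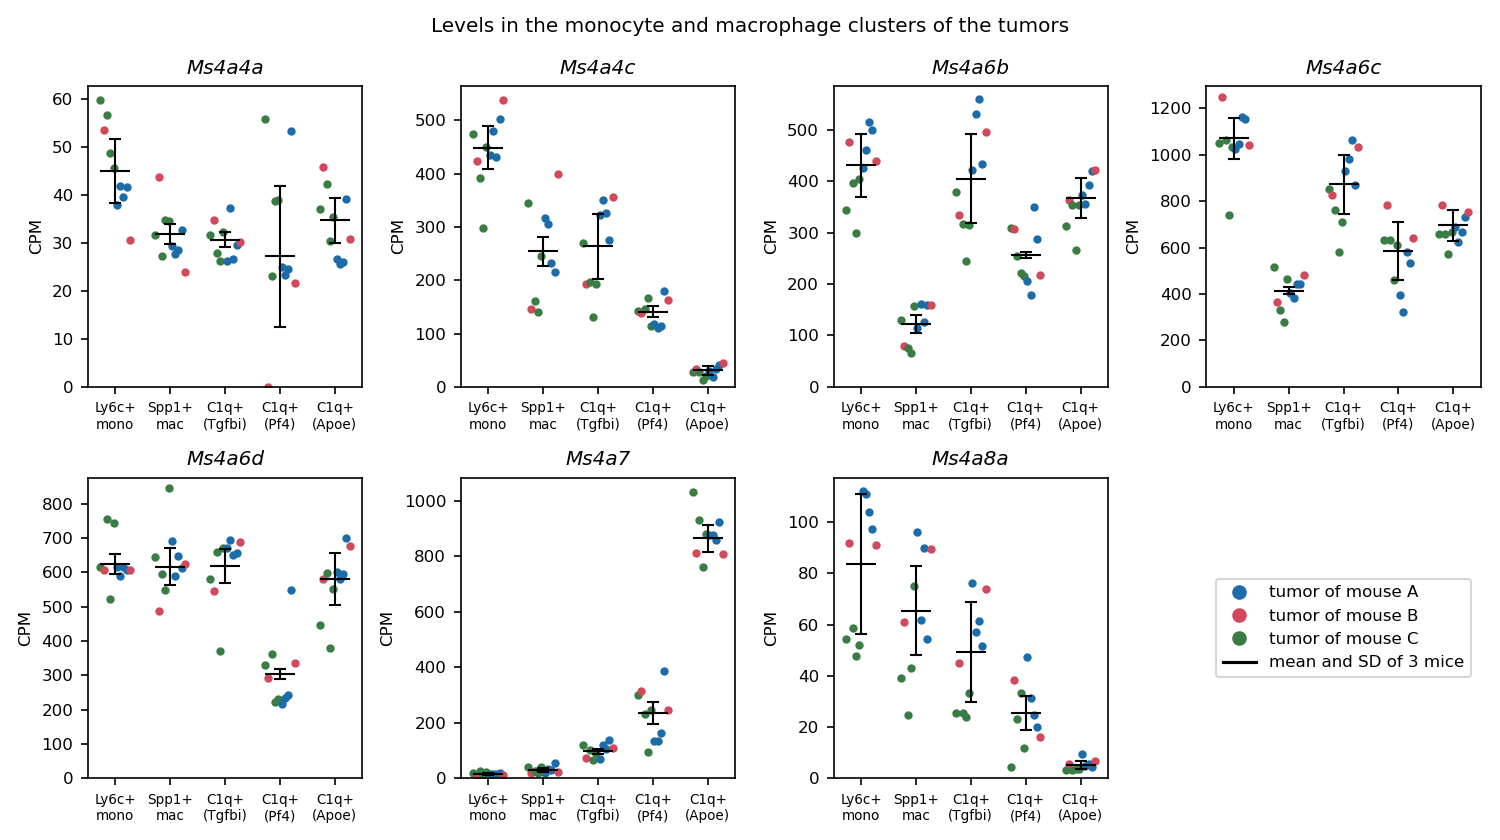
Levels in CPM of the 7 myeloid members in the monocyte and macrophage clusters of the tumors, 1 point per tumor colored by mouse, with bars for the mean and SD of 3 mice. Ms4a7 climbs from 15.8 to 865 CPM from Ly6c+ monocyte-like cells to the C1q+ cluster led by C1qa, C1qc and Apoe, while Ms4a4c goes from 449 to 31 and Ms4a8a from 83.6 to 5.23.

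Ms4a8a was highest outside the leukocytes. Tumor epithelial cells averaged 130 ± 22.4 CPM, with tumors from 68.4 to 225 and a median of 121, followed by Ly6c+ monocyte-like cells at 83.6 ± 27.3, Spp1+ macrophage-like cells at 65.5 ± 17.3 and C1q+ macrophage-like cells at 16.5 ± 6. The 2 monocyte and macrophage classes in the middle did not differ beyond their spread. Epithelial cells held 81.5% of its tumor UMIs and 99.5% of its mucosa UMIs. In tumors a UMI was present in 45.1% of epithelial cells (median depth 11341), 34.9% of Ly6c+ monocyte-like cells (median depth 6029) and 0.608% of neutrophil-like cells, or 9.99%, 7.87% and 0.214% after thinning.

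Within the epithelium Ms4a8a was highest in clusters led by genes of the differentiated colon surface. The cluster led by Ly6m, Clca4b and Saa1 held 1645 ± 418 CPM in mucosa (1398 to 2128) and 884 ± 123 in tumors (729 to 1092, 8 tumors with enough cells). Pooled over mucosa cells, the Cyp2c55-led, Aqp4-led and Reg3b-led clusters held 1095, 864 and 541 CPM, against 535 in the Zg16-led cluster. The cluster led by Zg16, Fcgbp and Clca1, genes of mucus-secreting goblet cells, held 521 ± 146 CPM in mucosa and 425 ± 78.8 in tumors. Other clusters led by goblet cell genes, the Retnlb-led and the Agr2-led, held 296 and 214 CPM pooled over mucosa cells. The 5 clusters made up almost wholly of tumor cells were lower, with 167 ± 19.7 CPM in the one led by the Paneth cell genes Defa24, Lyz1 and Mmp7, 77.7 ± 34.5 in the one led by Hspb1, Krt17 and Cxcl5, 66.3 ± 5.34 CPM in the one led by Gm26917, Onecut2 and Sox4, 46.2 ± 5.04 in the one led by Onecut2, Top2a and Prc1 and 32.3 ± 6.66 in the one led by Mt4, Spock2 and Mt3. The highest tumor value in these 5 clusters, 229 CPM, lay under every value of the Ly6m-led and Zg16-led clusters. Low levels were not confined to them. Pooled over cells, mucosa held 137 CPM in the Aldh1b1-led and 144 in the Hist1h1b-led cluster. The pooled Defa24-led tumor cells held 180 CPM. In tumors the Aldh1b1-led and Hist1h1b-led clusters held 149 and 202 CPM, while the Wfdc2-led cluster held 340 against 444 in mucosa.

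**Figure D3:**
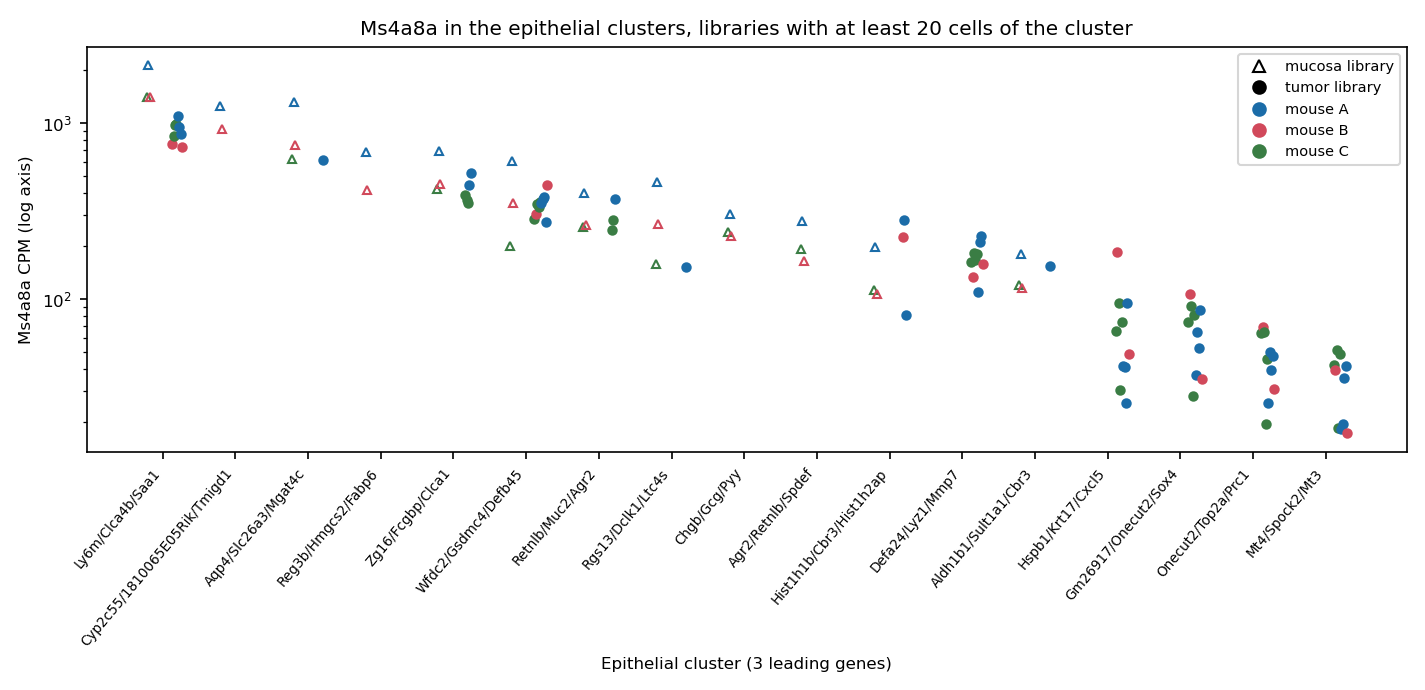
Ms4a8a level (CPM, log axis) in each epithelial cluster named by its 3 leading genes, for libraries with at least 20 cells of the cluster; open triangles are mucosa and filled circles tumors, colored by mouse. Levels run from 1645 CPM in mucosa cells of the Ly6m-led cluster to 32.3 CPM in the tumor cluster led by Mt4, Spock2 and Mt3.

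Ms4a7 also had counts in normal epithelium. In mucosa, 895 of 1250 Ms4a7 UMIs (71.6%) were in epithelial cells, a smaller share than that of all mucosa UMIs that were epithelial. The epithelial level was 3.21 to 4.23 CPM, against 1279 CPM in the 39 C1q+ macrophage-like cells of mucosa 3. Of the epithelial UMIs, 722 (80.7%) fell in the cluster led by Retnlb, Muc2 and Agr2, which are goblet cell genes. All 3 mucosa libraries showed it, with 221 to 273 UMIs each in that cluster and a level of 13.5 ± 4.92 CPM. The other goblet gene clusters of mucosa, led by Zg16 and by Agr2, held 5.33 ± 0.949 and 4.42 ± 1.1 CPM, while the mucosa cluster led by Aldh1b1, Sult1a1 and Cbr3 had 4 UMIs in 3729 cells.

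As a description over the tumor means of 13 classes, which share libraries and depth, the log2 levels of Ms4a6c and Ms4a6d correlated most among the members (Pearson r = 0.953), followed by Ms4a4a and Ms4a6d (r = 0.918). The neighbors Ms4a4b and Ms4a4c had r = 0.324. The genes outside the family whose pattern came nearest included, for Ms4a1, the B cell genes Ebf1 (r = 0.978) and Fcmr (r = 0.946). For Ms4a2 they were Tpsab1, Prss34 and Fcer1a. For Ms4a7 they were C1qc (r = 0.984), C1qa and C1qb, the chains of the first complement component. Of the genes named for Ms4a1, Ms4a2 and Ms4a7, all but Fcer1a are on the marker lists. Part of this likeness was therefore built in by the naming.

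The 3 nearest genes were Msr1 (r = 0.98), Trem2 and Ccl12 for Ms4a4a, and Sh2d1a (r = 0.944), Tcrg-C4 and Il22 for Ms4a4b. Ms4a4c was nearest to Ifi209 (r = 0.932), Jarid2 and Malt1, Ms4a6b to Mdfic (r = 0.902), Otulinl and Ccr2, and Ms4a6c to Clec4a1 (r = 0.938), Clec4a3 and Dab2. Ms4a6d was nearest to the IgG receptor Fcgr1 (r = 0.967), Slamf8 and Dab2, and Ms4a8a to the copper transporter Slc31a1 (r = 0.904), Nupr1 and Fn1. Trem2, Ccr2 and Fn1 are on the marker lists too.

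The other 9 Ms4a genes and the related Tmem176a and Tmem176b were read from a fixed list. Ms4a13 had no UMI, and Ms4a3 and Ms4a15 had 23 and 43 UMIs over all cells. Ms4a14 followed Ms4a7, its neighbor on the chromosome, with its highest level in C1q+ macrophage-like cells, at 10 ± 2.13 CPM. Ms4a10 (13.5 ± 3.6 CPM) and Ms4a12 (11.7 ± 5.1 CPM) were highest in epithelial cells of the tumors, and Ms4a4d, Ms4a5 and Ms4a18 did not exceed 0.352 CPM in any tumor class. Over all cells 4 of the 11 listed genes were called higher in tumors (Ms4a14, Ms4a4d, Tmem176a and Tmem176b) and 3 lower (Ms4a5, Ms4a12 and Ms4a18) by the edgeR test described below, where 71.3% of all genes were called. Ms4a14 (804 tumor and 5 mucosa UMIs) and Ms4a4d (151 and 8) passed the filter on low counts through the tumors, where they were high. Ms4a5 (15 tumor and 232 mucosa UMIs) passed it through mucosa, where it was high, so these calls are descriptions. In epithelial cells Ms4a10 was higher in tumors, at 7.16 to 23.1 CPM against 3.16 to 6.63 in mucosa (log2 1.02 ± 0.39, adjusted p = 0.0323), while Ms4a12 was lower (log2 -1.44 ± 0.42, adjusted p = 0.00816). Tmem176a and Tmem176b were highest in plasma cell-like cells, at 585 ± 120 and 556 ± 107 CPM. In that class Tmem176a was 74.8 to 99.2 CPM in mucosa and 414 to 785 in tumors (log2 3.35 ± 0.25, adjusted p = 8.40e-07, with 26.3% of genes called).

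Of the partners of the family, the B cell receptor genes Cd79a, Cd79b, Cd22 and Cr2 were all highest in B cell-like cells, the class of Ms4a1. Trem2, a lipid receptor of macrophages, was highest in C1q+ macrophage-like cells at 456 ± 40.3 CPM. Tnfrsf18, which codes for GITR, was highest in T cell-like cells at 426 ± 12.3 CPM, followed by the NK or innate lymphoid-like class at 397 ± 16.2, the 2 classes of Ms4a4b. Within the T cells of tumors the orders of these genes differed. Tnfrsf18 was 1323 ± 87.9 CPM in regulatory-like cells and 350 ± 31.4 CPM in other CD4 or naive-like cells, while Ms4a4b was lower in the former, at 213 against 716 CPM. Tnfrsf18 is on the marker list of regulatory T cells and Trem2 on that of C1q+ macrophages. The B cell receptor genes named here are on that of B cells. These places were therefore partly fixed by the naming. Clec7a, the gene of dectin-1, was not analysed here. Over all cells 8 of the 12 partner genes were called higher in tumors, where 36.3% of all genes were, and Cd22, Cd79b and Cr2 were among those not called.

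Tumors were then compared with mucosa over all retained cells, which gives how much of each transcript the recovered cells held, whatever their type. In these sums, fewer cells of a type and less RNA per cell cannot be told apart, nor can the tissue and its dissociation. edgeR's quasi-likelihood test with Benjamini-Hochberg adjustment over 17398 genes called 8 of the 10 members, 7 higher and 1 lower in tumors, where 71.3% of all genes were called, 36.3% higher and 35% lower. Every tumor lay above every mucosa library for the 7 higher members and below for Ms4a8a. The same held for 26.8% and 27.4% of all genes. The members were chosen with their counts by tissue known, so these calls are a description.

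Ms4a6d had 1.16, 0.787 and 1.98 CPM in mucosa 1, 2 and 3 and 89.7 to 186 CPM in tumors (median 153), a log2 fold change of 6.86 ± 0.39 (SE, adjusted p = 9.06e-09). Ms4a6c had 3.3, 1.52 and 5.1 CPM in mucosa and 124 to 253 in tumors (log2 5.95 ± 0.41, adjusted p = 4.11e-08). Ms4a4a rested on 22 mucosa UMIs in all, at 0.0114 to 0.162 CPM, against 6.41 to 11 CPM in tumors (log2 6.68 ± 0.44, adjusted p = 2.96e-08). Like Ms4a2 below, Ms4a4a passed the filter on low counts through the tumors, where it was high. These 3 genes belong to the monocyte and macrophage classes, of which the Ly6c+ and C1q+ classes made up 10.7% and 9.53% of tumor cells and 0.228% and 0.306% of mucosa cells.

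Ms4a4c went from 0.49 to 4.19 CPM in mucosa to 41 to 107 in tumors (log2 5.09 ± 0.58, adjusted p = 3.39e-06). Ms4a7 went from 4.28 to 5.23 CPM to 36.7 to 132 (log2 4.07 ± 0.40, adjusted p = 9.71e-07), and Ms4a6b from 6.01 to 21.6 CPM to 54.7 to 129 (log2 3.02 ± 0.37, adjusted p = 6.64e-06). Ms4a2 was called on few molecules, 8 UMIs in mucosa and 218 in tumors, with 0.16 to 0.521 CPM in tumors (log2 3.39 ± 0.55, adjusted p = 9.02e-05). Mucosa held 0.0114 to 0.0629 CPM of it, so Ms4a2 passed the filter on low counts through the tumors, where it was high. Leaving out 1 library gave log2 3.03 to 4.58.

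Ms4a8a was lower in tumors, at 34.7 to 113 CPM (median 65.6) against 230, 527 and 311 CPM in mucosa 1, 2 and 3 (log2 -2.41 ± 0.27, adjusted p = 2.96e-06). Ms4a1 and Ms4a4b were not called. For Ms4a4b the tumors (11.3 to 52.4 CPM) lay around the mucosa values of 64.3, 16.6 and 29.9 CPM (log2 -0.06 ± 0.44, adjusted p = 0.911).

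Ms4a1 split the tumors. Tumors 7 and 10 held 41.8 and 47.6 CPM and the other 8 between 2.46 and 6.81, with 18.8, 5.79 and 6.14 CPM in mucosa (log2 0.26 ± 0.97, adjusted p = 0.821). B cell-like cells made up 18.2% and 22.7% of the cells of tumors 7 and 10 and 0.731% to 3.54% of the other tumors. Without tumor 7 the fold change turned to -0.17 and without tumor 10 to -0.28 on the log2 scale. DESeq2 gave -1.13 with an adjusted p of 0.00487, so its direction depended on the method.

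**Figure D4:**
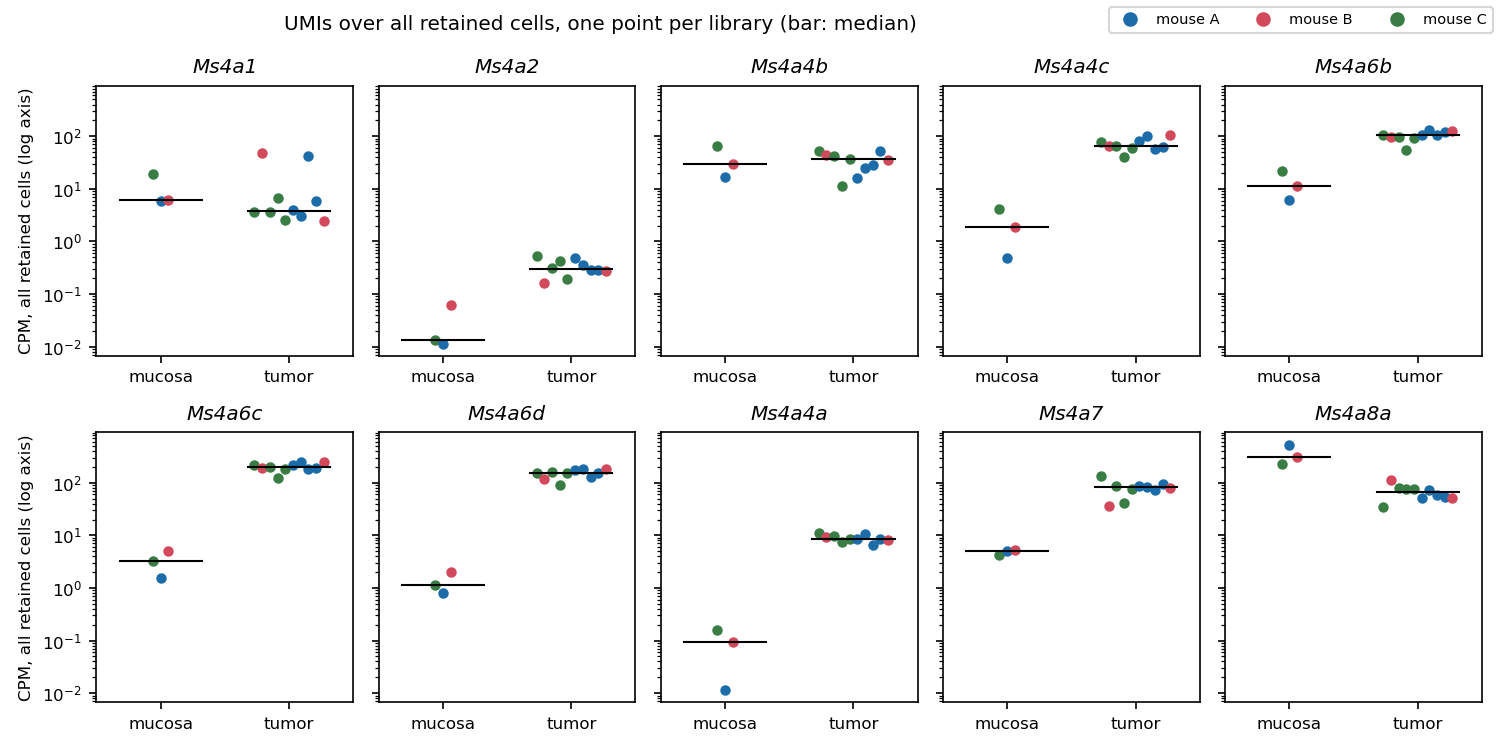
Level of each member over all retained cells (CPM, log axis), 1 point per library colored by mouse, with a bar at the median. All 10 tumors sit above all 3 mucosa libraries for Ms4a2, Ms4a4a, Ms4a4c, Ms4a6b, Ms4a6c, Ms4a6d and Ms4a7 and below them for Ms4a8a, while 2 tumors stand apart for Ms4a1 at 41.8 and 47.6 CPM.

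The choice of members used counts by class and tissue, so the calls within classes and clusters given next are descriptions too and support nothing further. Where tissues are said not to overlap within a class or cluster, the share of all genes without overlap was not computed. The comparison within a class could be made for B cell-like, plasma cell-like, T cell-like, NK or innate lymphoid-like and epithelial cells, which had at least 20 cells in each mucosa library. Of the monocyte and macrophage classes, the Ly6c+ class had enough cells in 1 mucosa library, mucosa 3, with 29 cells, so there was no test. Its values there were 421 CPM for Ms4a4c, 631 for Ms4a6b, 1591 for Ms4a6c and 513 for Ms4a6d, of which the Ms4a4c value lay within the tumors' range, Ms4a6b and Ms4a6c above it and Ms4a6d below it. The C1q+ class had 39 cells in mucosa 3, with 1279 CPM of Ms4a7, 988 of Ms4a6c and 600 of Ms4a6b, all above the highest tumor, and 521 of Ms4a6d, within the tumors' range.

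In B cell-like cells Ms4a1 was 801, 688 and 688 CPM in mucosa 1, 2 and 3 and 497 to 718 in tumors. The groups overlapped and the difference did not pass edgeR's threshold (log2 -0.32 ± 0.14, adjusted p = 0.0807, with 39% of genes called), but passed in DESeq2 (adjusted p = 0.0215). Of the 4 members tested there, 1 was called. It was Ms4a6c, at 5.76 to 36.9 CPM in mucosa and 0 to 19.7 in tumors (log2 -1.95 ± 0.56, adjusted p = 0.00857), on 52 mucosa UMIs, and it passed the filter on low counts in 6 of the 13 fits that left out 1 library. Ms4a4c ran from 22.7 to 125 CPM in mucosa and from 64.2 to 192 in tumors (log2 0.51 ± 0.34, adjusted p = 0.241), and passed when mucosa 1 was left out (log2 1.48, adjusted p = 0.00344).

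In plasma cell-like cells 26.3% of genes were called. Ms4a1 was lower in tumors. Its mucosa values were 85.6, 110 and 25 CPM and its tumor values 2.68 to 20.4 (median 5.25), with every tumor below every mucosa library (log2 -2.56 ± 0.42, adjusted p = 0.000534). It was the 1 call among the 5 members tested. Cd79b, a chain of the B cell receptor, was also lower in tumors in these cells, at 398 ± 5.57 CPM in mucosa and 193 ± 9.14 in tumors (log2 -0.39 ± 0.12, adjusted p = 0.0308). The fitted fold changes are on TMM-scaled counts and for these 2 genes were smaller than the ratios of the CPM. The part of B cells in the result was not tested.

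In T cell-like cells taken as 1 class, 5 of the 6 members tested were called, where 41.4% of genes were called, 20.9% higher and 20.5% lower. Ms4a4c (log2 1.85), Ms4a6b (0.61), Ms4a6c (2.48) and Ms4a6d (1.51) were higher in tumors and Ms4a8a lower (-3.62). Ms4a8a averaged 1.6 CPM in these tumors, so passing the filter on low counts rested mainly on the mucosa libraries. Leaving out 1 library gave fold changes of Ms4a8a from -4.17 to -2.13. Ms4a4b, the member T cells held most of, was not called (log2 -0.07 ± 0.22, adjusted p = 0.824). The call for Ms4a6b was lost without mucosa 2 or 3 (adjusted p = 0.0544 and 0.0593). Different clusters held most of the class in each tissue, 3853 of the 4608 mucosa cells being intraepithelial or gamma delta-like and 5301 of the 6933 tumor cells being other CD4 or naive-like.

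Taken cluster by cluster, Ms4a4b was lower in tumors in both clusters, a test added after the data were seen. In other CD4 or naive-like cells it was 1533, 1378 and 1505 CPM in mucosa 1, 2 and 3 against 532 to 969 in tumors (median 731), with every tumor below every mucosa library (log2 -0.86 ± 0.18, adjusted p = 0.00338, with 14.8% of genes called, 8.71% higher and 6.1% lower). In intraepithelial or gamma delta-like cells it was 567.6, 576 and 585 CPM in mucosa against 150 to 515 in 8 tumors, again without overlap (log2 -0.93 ± 0.26, adjusted p = 0.0146, with 18% of genes called, 6.98% lower). The second call was lost without mucosa 3 (adjusted p = 0.0538). In both tests tumors of the same mouse entered as separate samples. Neither a mouse block nor sums by mouse were run for these clusters. The other CD4 or naive-like cluster was led by Ifng, Trbc2 and Cd6, with Cd4, Cd28 and Icos also among its leading genes. Whether the mix of T cells within each cluster differed by tissue was not tested. These are therefore differences of the cluster and not of a matched cell type. In tumors Ms4a4b was also low in regulatory-like cells, at 213 ± 56.3 CPM, and in Il17a-producing-like cells, at 20.7 ± 8.94 CPM.

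Ms4a6b had the same direction in both clusters and did not pass edgeR's threshold in either. In other CD4 or naive-like cells it was 534 to 580 CPM in mucosa and 295 to 436 in tumors (log2 -0.46 ± 0.16, adjusted p = 0.0658, and 0.0278 in DESeq2), and in intraepithelial or gamma delta-like cells 167 to 185 CPM against 64.6 to 186 (log2 -0.59 ± 0.21, adjusted p = 0.0573, and 0.048 in DESeq2). With edgeR it passed in the first cluster without tumor 2, 4, 7 or 10 (adjusted p from 0.0431 to 0.0484) and in the second without tumor 2 or 8 (adjusted p = 0.0445 and 0.0105). The class as a whole had the opposite sign, and the CD4 or naive-like cluster, with the higher Ms4a6b level, made up 5301 of 6933 tumor cells and 613 of 4608 mucosa cells of the class. The myeloid Ms4a6c was higher in tumors in the CD4 or naive-like cluster (log2 1.33 ± 0.38, adjusted p = 0.0212), at 17 to 36.9 CPM against 6.37 to 22.2 with overlap, and this call was lost without mucosa 1 (adjusted p = 0.306). Tyrobp, which myeloid and NK cells express, was higher in tumors in that cluster as well (log2 2.30 ± 0.71, adjusted p = 0.0347), and the part of free RNA from monocytes was not tested.

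**Figure D5:**
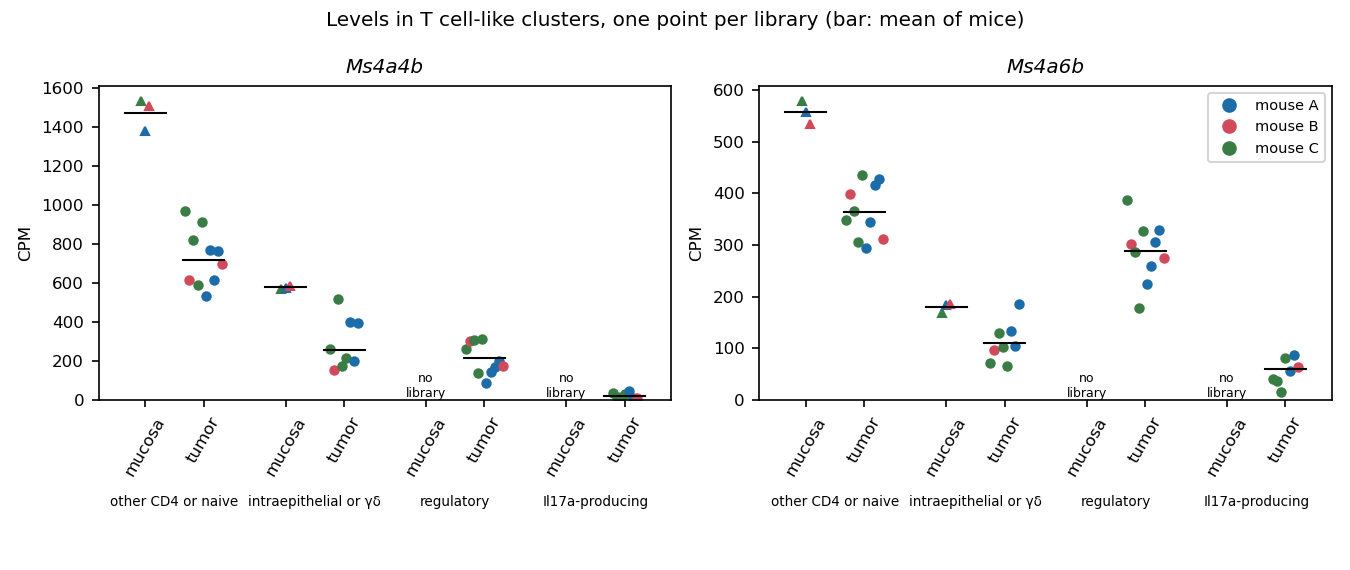
Ms4a4b and Ms4a6b levels (CPM) in the T cell-like clusters by tissue, 1 point per library with at least 20 cells, triangles for mucosa and circles for tumors, colored by mouse, with a bar at the mean of mice. In other CD4 or naive-like cells Ms4a4b lies at 1378 to 1533 CPM in mucosa and 532 to 969 in tumors. No mucosa library had enough regulatory-like or Il17a-producing-like cells.

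NK or innate lymphoid-like cells gave no call for Ms4a4b, at 909 to 1037 CPM in mucosa and 559 to 1222 in tumors (log2 0.04 ± 0.22, adjusted p = 0.919), which does not show that the levels were equal. Of the 3 members tested 1 was called, with 29.6% of genes called. Ms4a4c was higher in tumors, at 14 to 73.5 CPM against 5.49, 27.5 and 25.7 in mucosa (log2 1.73 ± 0.47, adjusted p = 0.00752), on 11 mucosa UMIs, and the call was lost without mucosa 1 (adjusted p = 0.257).

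In epithelial cells, where 64.9% of genes were called, 34.1% higher and 30.7% lower, 6 of the 8 members tested were called, 4 higher and 2 lower. Ms4a8a fell from 264, 552 and 338 CPM in mucosa 1, 2 and 3 to 68.4 to 225 in tumors, with no overlap (log2 -1.88 ± 0.30, adjusted p = 0.000121). Ms4a7 fell from 4.23, 4.11 and 3.21 CPM to 0.134 to 1.35, also with no overlap (log2 -2.64 ± 0.44, adjusted p = 0.000155). A UMI of Ms4a8a was present in 87% of mucosa epithelial cells (median depth 12271) and 32.7% after thinning, against 45.1% and 9.99% in tumors. The tissues differed in the epithelial clusters they held, so these are differences of the class and not of a matched cell type.

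The 4 members higher in tumor epithelium were myeloid genes at low levels, which passed the filter on low counts through the tumors, where they were high. Ms4a4c, Ms4a6b, Ms4a6c and Ms4a6d stood at 1.37 ± 0.497, 1.8 ± 0.563, 2.99 ± 0.563 and 2.03 ± 0.565 CPM in tumors and at 0.0565, 0.245, 0.112 and 0.033 CPM in mucosa. Tyrobp, a myeloid adaptor gene, went the same way in these cells, from 0.498 ± 0.359 to 28.3 ± 1.55 CPM, and Trem2 from 0.0142 to 0.711 CPM. In mucosa T cell-like cells Ms4a8a stood at 3.68, 61.6 and 13.9 CPM in mucosa 1, 2 and 3, in the same order as the epithelial level of those libraries at 264, 552 and 338 CPM. The part of free RNA in these values was not tested.

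The tumors of the 3 mice were compared in the class where each member was highest, a contrast that the choice of members did not use. None of the 9 members tested was called by edgeR (adjusted p from 0.155 to 0.954), where 0.35% of genes were called in B cell-like, 6.21% in Ly6c+ monocyte-like, 3.44% in NK or innate lymphoid-like, 3.82% in C1q+ macrophage-like and 0.699% in epithelial cells. Before adjustment edgeR's p was below 0.05 for 3 of them, Ms4a4a, Ms4a4b and Ms4a6b. Over all genes it was below 0.05 for 508 of 4852 in B cell-like, 2122 of 9830 in Ly6c+ monocyte-like, 549 of 3634 in NK or innate lymphoid-like, 2435 of 11579 in C1q+ macrophage-like and 3053 of 15310 in epithelial cells. DESeq2's likelihood ratio test called none of the 9 (adjusted p from 0.0865 to 0.921), also with 3 below 0.05 before adjustment, where over all genes 299, 1822, 363, 2197 and 3451 were, in the same order of classes. Without tumor 10 edgeR called Ms4a4a (adjusted p = 0.0281). For Ms4a4b in NK or innate lymphoid-like cells the means were 789, 894 and 1147 CPM in mice A, B and C (adjusted p = 0.155, exact permutation p = 0.0616). For Ms4a6b in Ly6c+ monocyte-like cells they were 475, 458 and 361 CPM (adjusted p = 0.215, exact permutation p = 0.0298, not adjusted for the 9 members).

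Ms4a8a in Ly6c+ monocyte-like cells, a case chosen after its values were seen, differed between mice. The 4 tumors of mouse C held 47.8 to 58.8 CPM, the 4 of mouse A 97.4 to 112 and the 2 of mouse B 91.1 and 91.8, so no tumor of mouse C overlapped those of the other mice (edgeR adjusted p = 0.00133 with 6.21% of genes called, exact permutation p = 0.00127 from the F statistic). Leaving out each tumor in turn kept edgeR's call, with adjusted p from 0.00122 to 0.0102. In Spp1+ macrophage-like cells mouse C ran from 24.7 to 75.3 CPM and mice A and B from 54.6 to 96.2, with overlap. In C1q+ macrophage-like cells the tumors of mouse C held 8.13 to 11.5 CPM, those of mouse A 13.6 to 22 and those of mouse B 21 and 23, without overlap of mouse C with the others, and this class was not tested for Ms4a8a. The share of all genes without overlap between 1 mouse and the others was not computed for either class. In epithelial cells the means were 111, 155 and 124 CPM in mice A, B and C (adjusted p = 0.621). Mouse C was the youngest at 20 weeks, and the animal and its age cannot be told apart.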

How the data were processed

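Single-cell suspensions of 10 colon tumors and 3 adjacent mucosa samples were sequenced as 3′ libraries. The deposited values were UMI counts per gene and barcode, made by the authors with Cell Ranger and not normalized. The submitters' processing notes give Cell Ranger 6.0.0 and the build mm10, while the study's methods name another version. No column belonged to an unknown sample (0). A barcode was retained with 500 or more UMIs, 200 or more genes and less than 25% of UMIs from mitochondrial genes, and the most doublet-like 0.8% per 1000 cells of a library were removed (8982 cells, with 18699 failing the filters). The 2000 most variable genes, of which 0 were Ms4a genes, were reduced to 30 components and clustered with the Leiden method (20 neighbors, resolution 1, seed 11; Python 3.11.15, leidenalg 0.10.2), giving 42 clusters that were named from fixed marker lists. UMIs were summed per library and class, and a class was used in a library that held at least 20 of its cells.

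Tumors were compared with mucosa, and mice with each other, with edgeR 4.0.16 in R 4.3.3 (TMM, filterByExpr, quasi-likelihood test, Benjamini-Hochberg adjustment over all genes tested, threshold 0.05). DESeq2 1.42.0, no filter on low counts, mouse as a replicate block, tumors summed by mouse, doublets kept, a mitochondrial limit of 10%, stricter cell filters and leaving out each library were the alternatives. Between tissues, sums by mouse, doublets kept and stricter cell filters were run only over all cells. For the T cell clusters the alternatives were DESeq2 and leaving out each library. Single values were compared between mice with an exact permutation test of the F statistic on log2(CPM + 1). Reported fold changes are tumor over mucosa. Shares of cells with a UMI were repeated after thinning each cell to 1000 UMIs, shallower cells being left out. With 57221300 to 116133079 UMIs in a library, precision was limited by the number of cells of a class, and counts of a few UMIs cover counting error only. Promoters and gene positions came from RefSeq and the annotation of GRCm38.

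By the labels, tumors and mucosa are paired through the animal and not through the replicate number. Deviations from the group means of tumors and mucosa of the same mouse correlated at 0.0688, 0.0584 and 0.0693 over 10073 genes. On simulated counts for the comparison over all cells (17239 genes) edgeR recovered 100% of genes changed 4-fold and 30% of those raised 2-fold, with 8 false calls. For B cell-like cells it recovered 100% of genes raised and 82% of those lowered 4-fold. The simulation changed few genes and drew libraries without regard to mice. In the data 71.3% of genes were called over all cells, so these rates need not hold there.

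The 10 members, the other family and partner genes and the marker lists were chosen with earlier results of these data known. Named besides the members were all other Ms4a and Tmem176 genes with at least 100 UMIs, the listed partners, and for each member the 3 genes nearest in Pearson correlation of log2(CPM + 1) over 13 classes, among genes of at least 50 CPM in 1 class, except that a few gene names are not reported here. The T cell clusters, Ms4a8a in Ly6c+ monocyte-like cells and the sum of mast cell-like cells by mouse were added after the data were seen.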

Additional observations from a re-analysis of the deposited data

Results flagged for a closer look

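Of 19 groups of tumor values examined for a sample far from the others, 2 were picked out, and chance picks out about 1 in 20 such groups. Both came from tumor 3 of mouse C. Over all retained cells its Ms4a6b level was 54.7 CPM, where the other 9 tumors ran from 91.5 to 129 CPM. In Ly6c+ monocyte-like cells its Ms4a6c level was 740 CPM, where the others ran from 1023 to 1248 CPM. The Ms4a6b value still lay above the highest mucosa library, 21.6 CPM.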

How the results depend on the processing

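Over all cells the 8 member calls kept their direction and their side of the threshold under every alternative. The fold change of Ms4a1 turned to -1.13 with DESeq2 and to -0.29 with the mouse as a replicate block, and that of Ms4a4b to 0.0551 with the block and 0.12 with a mitochondrial limit of 10%, while the block changed no other call. In epithelial cells Ms4a4b turned to 0.0602 with that mitochondrial limit. Leaving out 1 library gave ranges that crossed 0 for Ms4a1 (-0.28 to 1.01) and Ms4a4b (-0.39 to 0.58) over all cells, for Ms4a1 in epithelial cells (-0.94 to 0.31), for Ms4a4b in NK or innate lymphoid-like (-0.0305 to 0.11) and T cell-like cells (-0.15 to 0.0525), for Ms4a4b (-1.49 to 0.88), Ms4a6b (-0.82 to 0.24) and Ms4a6d (-0.32 to 1.28) in plasma cell-like cells and for Ms4a4c in CD4 or naive-like cells (-0.0142 to 0.45). None of these was called in the fit reported.

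The number of genes called between tissues ranged, leaving out 1 library, from 614 to 1136 in NK or innate lymphoid-like, 1401 to 2628 in plasma cell-like, 829 to 1662 in CD4 or naive-like and 489 to 865 in intraepithelial or gamma delta-like cells, the lowest counts being without mucosa 1, 2, 1 and 3. Genes called between mice ranged from 2 to 108 in B cell-like, 225 to 1007 in Ly6c+ monocyte-like, 51 to 194 in NK or innate lymphoid-like, 56 to 976 in C1q+ macrophage-like and 0 to 1337 in epithelial cells. DESeq2 called 73, 956 and 1314 in B cell-like, C1q+ macrophage-like and epithelial cells, against 17, 442 and 107 with edgeR. The cause was not tested. The highest class of Ms4a6d was Spp1+ macrophage-like with tumors averaged regardless of mouse and with doublets kept. The number of cells limits the results for mast cell-like cells (8 to 16 per tumor) and the myeloid cells of mucosa.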
